A study of Mus musculus with 3 samples.

Results

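The 37 genes encoded by mitochondrial DNA were examined in bulk RNA-Seq counts of maxillary processes from 3 libraries of E10.5 *wnt1cre; Rosa26Dlx2/-* mouse embryos, named OE replicates 1, 2 and 3 here. In these embryos Cre recombinase under *wnt1* control acts on a *CAG-LSL-Dlx2-3xFlag* transgene at *Rosa26*, in which the CAG promoter is followed by a floxed stop, so that *Dlx2* is overexpressed in cells derived from the neural crest. Cells of other origin in the process keep the stop. There is 1 group, since no wild-type library was analysed here. No value therefore bears on the effect of *Dlx2*, and no test was made. The labels name 3 independent RNA samples without saying how many embryos each holds. The members were chosen by gene name, as the rows of the count tables whose name in GENCODE M21 starts with mt-, and no measured value of a gene entered the rule. The set was nevertheless picked on earlier results of these same libraries, so that the difference in its share between them is a description. They are 37 of 55401 genes: 13 genes for proteins, 2 for ribosomal RNAs and 22 for transfer RNAs. *Dlx2* itself had 9089, 7150 and 6890 counts in replicates 1, 2 and 3, or 235, 201 and 183 counts per 1000000 scaled counts on genes (CPM), in which reads of the gene and of the transgene cannot be told apart. All 5 mesenchyme markers had counts in every library, from *Prrx1* (629, 582 and 419 CPM) and *Twist1* (318, 342 and 464 CPM) down to *Pdgfra* (91.5, 81.3 and 76.1 CPM) and *Alx1*, which was lower in replicate 1 (21.4, 57.8 and 47.8 CPM).

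Mitochondrial DNA is a small circle that is copied and transcribed inside the organelle. Both of its strands are read as long transcripts, and the transfer RNAs that lie between the other genes are cut out, which frees the ribosomal RNAs and the messenger RNAs. The messenger RNAs then gain short poly(A) tails, and in several of them the tail completes the stop codon. All of the proteins are core subunits of the respiratory chain or of ATP synthase, where they are assembled with subunits encoded in the nucleus. The libraries were prepared from RNA bound to poly-T beads, so that what was counted is the polyadenylated RNA and what came with it.

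The order of the genes on the chromosome bears on every count below. Of the members, 28 are annotated on the plus strand, called heavy-strand genes here after the template strand from which they are read, and 9 on the minus strand, namely *mt-Nd6* and 8 transfer RNA genes. Neighbouring genes lie within 5 bases of each other or overlap, apart from *mt-Tn* and *mt-Tc* with 32 bases between them, and 2 overlaps between protein genes are shown here because reads across them belong to 2 genes. In capitals are the bases that both genes use, with 20 bases on either side (plus strand, GRCm38, sequences from the GENCODE M21 transcripts).

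mt-Atp8 and mt-Atp6, chrM:7907-7989: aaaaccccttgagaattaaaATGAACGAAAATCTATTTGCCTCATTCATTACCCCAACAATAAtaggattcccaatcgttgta

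mt-Nd4l and mt-Nd4, chrM:10147-10193: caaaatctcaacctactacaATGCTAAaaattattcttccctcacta

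The 43 shared bases of *mt-Atp8* and *mt-Atp6* hold the start codon of the latter and the stop codon of the former in different reading frames, and *mt-Nd4l* and *mt-Nd4* share 7 bases. The ends of 3 messenger RNAs are printed next because they carry an incomplete stop codon, whose single base is in capitals, followed by *mt-Co1* with its whole stop codon for comparison.

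mt-Co3: tttattgatgaggatctT

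mt-Nd4: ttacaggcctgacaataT

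mt-Cytb: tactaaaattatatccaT

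mt-Co1: tatgtaaaagtaaaaTAA

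In the annotation, 10 of the 13 coding sequences ended in a whole stop codon and 3 in a lone T. The start codon was ATG in 9 of them, and GTG, ATA, ATT and ATC in *mt-Nd1*, *mt-Nd2*, *mt-Nd3* and *mt-Nd5*. The *mt-Nd1* and *mt-Nd2* sequences overlapped the next transfer RNA by 2 bases each. Guanine made up between 5.88% (*mt-Atp8*) and 16.1% (*mt-Co1*) of the coding sequences of the heavy-strand genes, as written on the plus strand. It made up 28.1% of *mt-Nd6*, as written on the minus strand.

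The share of counts taken by mitochondrial genes differed several-fold between libraries of the same genotype. Mitochondrial genes held 440727 of 36544554 counts on genes in replicate 1, or 1.21% (95% exact binomial interval 1.20% to 1.21%). In replicate 2 they held 1549262 of 35351031, or 4.38% (4.38% to 4.39%), and in replicate 3 1585264 of 40057435, or 3.96% (3.95% to 3.96%). The intervals cover counting error only, and reads without molecular identifiers are not independent molecules. The mean was 3.18% ± 1.72 (SD, n = 3), and the highest share was 3.63 times the lowest. Without replicate 1 that ratio was 1.11, so the spread rests on this library. Fewer mitochondria-rich cells and less mitochondrial RNA per cell cannot be told apart in bulk samples.

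**Figure D1:**
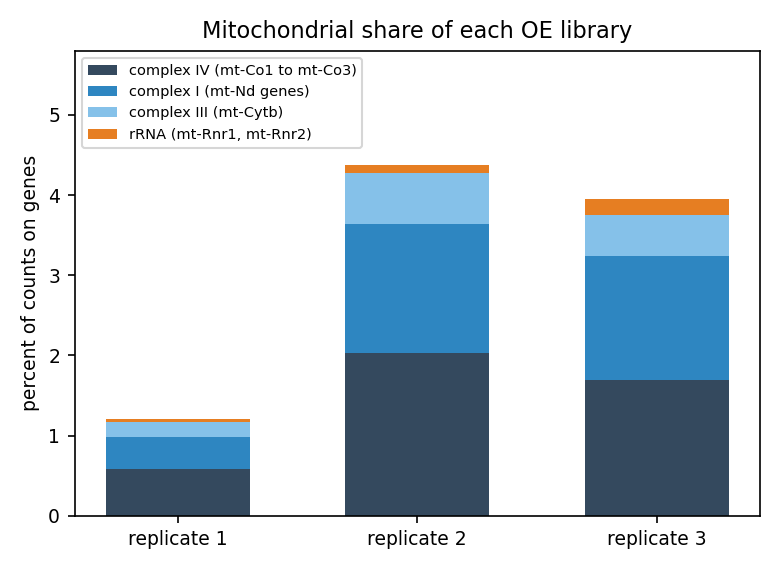
The bars show the percent of counts on genes held by mitochondrial genes in each OE library, stacked by the complex that the protein joins and by rRNA (complex V and tRNA hold under 1% of each bar and are not drawn). Replicate 1 reached 1.21%, replicate 2 4.38% and replicate 3 3.96%.

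Replicate 1 also stood apart in other ways, and the part of these in the low mitochondrial share was not tested. The female transcript *Xist* was at 671 CPM in replicate 1 and at 0.309 and 0.557 in replicates 2 and 3, and 4 Y-linked genes summed to 0, 146 and 109 CPM. All 7 neuron markers were higher there than the mean of the other libraries on log2 CPM (summed 245, 23.9 and 34.2 CPM in replicates 1, 2 and 3), as were 5 of 5 epithelial markers (355, 246 and 250.1). All 5 erythroid markers were lower there (1947, 3633 and 4262), and so were 5 of 5 pigment epithelium markers (4.9, 33.6 and 155), of which *Tyr* and *Tyrp1* were at 0 counts in replicate 1. Muscle markers summed to 10.3, 6.3 and 14.4 CPM. Reads that were not uniquely placed made up 3.08%, 4.77% and 5.19% of counted reads in replicates 1, 2 and 3, reads on more than 1 gene 6.11%, 6.10% and 6.96%, and reads on no gene 5.03%, 4.84% and 4.27%.

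Of the 37 members, 16 had at least 10 counts in every library, namely the 13 protein genes, both rRNA genes and *mt-Tp*. The remaining 21 members, all tRNA genes, had 0 counts in all 3 libraries. No limit on their level is given from these counts, for the reason set out with *mt-Tp*. All 16 were past a 1.5-fold ratio between the highest and the lowest library, against 61.9% of the 17115 genes whose counts averaged 10 or more. Replicate 1 was the lowest library for all 16, against 39.3% of all genes. On log2 CPM, 16 of 16 lay at -1 or below in replicate 1 relative to the mean of the other libraries, as did 6.69% of all genes. All 16 are at most 2000 bases long, and of nuclear protein-coding genes 86 of 299 up to 1000 bases and 163 of 1487 from 1000 to 2000 reached -1 there. The part of length in the low values of the members was not tested. The median of the 16 was -2.17, beside 0.01 over all genes, whose 5th percentile was -1.13. Without replicate 1, 6 of the 16 members had a 1.5-fold ratio, beside 44.3% of all genes, all 6 higher in replicate 3 than in replicate 2: *mt-Rnr1*, *mt-Rnr2*, *mt-Co2*, *mt-Atp6*, *mt-Co3* and *mt-Nd3*.

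Subunits of complex IV, cytochrome c oxidase, held 45.9% ± 2.82 of the mitochondrial counts (SD, n = 3), nearly all of it in *mt-Co1*, which encodes the catalytic subunit. *mt-Co1* (ENSMUSG00000064351, chrM 5328 to 6872) had 212961, 714578 and 675333 counts in replicates 1, 2 and 3. It was the most abundant gene of all by mean CPM, ranking 2 in replicate 1 behind *Eef1a1* and 1 in replicates 2 and 3. Its share of the mitochondrial counts was 48.3%, 46.1% and 42.6%. In contrast, *mt-Co2* (chrM 7013 to 7696), which encodes the subunit that takes up electrons from cytochrome c, had 285, 1234 and 2281 counts. *mt-Co3* (chrM 8607 to 9390) had 328, 1099 and 1818 counts. *mt-Co1* thus lay far above the other 2 subunits of the same enzyme in every library, while *mt-Co2* and *mt-Co3* lay close to each other. Both low genes have near-identical copies in the nuclear genome, described below.

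Subunits of complex I, NADH dehydrogenase, held 36.2% ± 2.99 (SD, n = 3). *mt-Nd1* (chrM 2751 to 3707) had 55066, 219191 and 290703 counts, lowest in replicate 1 and highest in replicate 3. *mt-Nd2* (chrM 3914 to 4951) had 26820, 113045 and 115815 counts. *mt-Nd4* (chrM 10167 to 11544) had 23815, 90984 and 96375 counts. These form part of the proton-pumping arm of the complex in the membrane. *mt-Nd5* (chrM 11742 to 13565), another pump subunit and the longest gene of the set at 1824 bases, had 35718, 131697 and 96992 counts and was highest in replicate 2. *mt-Nd3* (chrM 9459 to 9806) had 33, 155 and 311 counts. *mt-Nd4l* (chrM 9877 to 10173) had 36, 109 and 100 counts, the fewest of the protein genes by mean CPM. *mt-Nd6* (chrM 13552 to 14070, minus strand) had 3740, 12182 and 16146 counts.

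*mt-Cytb* (chrM 14145 to 15288), which encodes cytochrome b, the sole mitochondrially encoded subunit of complex III, had 69697, 224996 and 209053 counts, or 14.5% ± 1.31 of the mitochondrial counts (SD, n = 3). The ATP synthase subunits of complex V were near the bottom. *mt-Atp6* (chrM 7927 to 8607), part of the proton channel, had 150, 608 and 1047 counts, and *mt-Atp8* (chrM 7766 to 7969) had 49, 236 and 266. Together they made up 0.0608% ± 0.0196 (SD, n = 3). Counts summed by complex were thus very unequal, in the same broad order in every library. *mt-Atp6*, like *mt-Co2* and *mt-Co3*, has a near-identical nuclear copy, and *mt-Atp8* is short and overlaps *mt-Atp6*, as described below. The counts of these genes are uncertain, so the shares by complex are no measure of the RNA of a complex.

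Both genes for the RNAs of the mitochondrial ribosome were counted. *mt-Rnr1* (12S rRNA, chrM 70 to 1024) had 4508, 14917 and 33737 counts, and *mt-Rnr2* (16S rRNA, chrM 1094 to 2675) had 6821, 22004 and 42937. Together they held 2.57%, 2.38% and 4.84% of the mitochondrial counts in replicates 1, 2 and 3, so that replicate 3 stood above the others, which lay close to each other. Per length, *mt-Rnr2* was at 0.913, 0.890 and 0.768 times the level of *mt-Rnr1*.

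Per kilobase of gene, *mt-Co1* was highest at 9390 ± 5087 CPM per kilobase (SD, n = 3), followed by *mt-Nd1* (5330 ± 3423), *mt-Cytb* (3985 ± 2111), *mt-Nd2* (2230 ± 1353), *mt-Nd4* (1386 ± 813), *mt-Nd5* (1316 ± 765) and *mt-Nd6* (557 ± 332). Replicate 1 was the lowest library for each of them. After these came *mt-Co2* (50.0 ± 38.9), *mt-Co3* (37.3 ± 25.4), *mt-Atp8* (24.4 ± 15.8), *mt-Atp6* (23.9 ± 17.6), *mt-Nd3* (12.9 ± 10.6) and *mt-Nd4l* (7.46 ± 3.81). Of the 12 pairs of neighbours in this order, 7 kept their order in all 3 libraries. The order was not shared by all libraries for *mt-Nd1* and *mt-Cytb*, *mt-Nd4* and *mt-Nd5*, *mt-Co2* and *mt-Co3*, *mt-Atp8* and *mt-Atp6*, or *mt-Nd3* and *mt-Nd4l*. The means of neighbours in the order differed by less than the larger of their SDs, which include the low replicate 1, in every pair except *mt-Nd6* and *mt-Co2*. These SDs hold the difference between libraries that all members share, so they do not measure how far a pair is separated within a library.

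**Figure D2:**
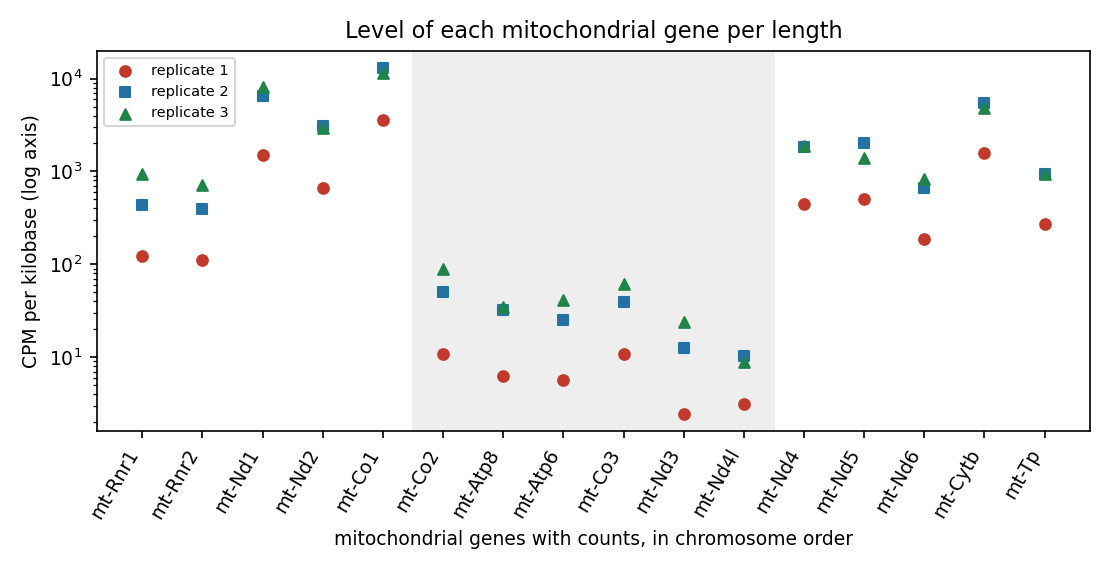
CPM per kilobase on a log axis for the 16 mitochondrial genes with counts, in chromosome order, with 1 point per OE library. The shaded genes from mt-Co2 to mt-Nd4l lie between 2.46 and 88.5 CPM per kilobase in all libraries, below every other protein gene, and replicate 1 is the lowest point of each gene.

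The 6 low protein genes are neighbours: *mt-Co2*, *mt-Atp8*, *mt-Atp6*, *mt-Co3*, *mt-Nd3* and *mt-Nd4l* follow each other on the chromosome. The highest of them was at 10.8, 50.7 and 88.5 CPM per kilobase in replicates 1, 2 and 3. The lowest of the 7 other protein genes, *mt-Nd6* in each case, was at 187, 659 and 826, or between 9.33 (replicate 3) and 17.2 (replicate 1) times as high. The 2 sets did not overlap in any library, but the 6 were grouped here by their low levels, so this is a description. All 6 together held 881, 3441 and 5823 counts, or 0.2%, 0.222% and 0.367% of the mitochondrial counts.

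This stretch of the mitochondrial genome has a copy on chromosome 1 of the nuclear genome. Between chr1:24611535-24616197 (GRCm38, minus strand, 4663 bases) GENCODE M21 annotates 7 unprocessed pseudogenes, *Gm29216*, *Gm28661*, *Gm10925*, *Gm28437*, *Gm28438*, *Gm10222* and *Gm28439*, which match *mt-Co1* in part, *mt-Co2*, *mt-Atp6*, *mt-Co3*, *mt-Nd3*, *mt-Nd4l* and *mt-Nd4* in part, in this order. From *mt-Co2* to *mt-Nd3* the copies start at the same distances, 914, 1594 and 2446 bases from the start of *mt-Co2* and of its copy, and the last 2 are offset by 1 base. The opening of *mt-Co2* and of *Gm28661* is printed to show that a read from here carries nothing that tells the places apart.

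mt-Co2, chrM:7013-7072: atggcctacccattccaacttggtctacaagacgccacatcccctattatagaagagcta

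Gm28661, chr1:24615506-24615565: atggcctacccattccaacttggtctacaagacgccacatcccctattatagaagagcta

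Over their whole lengths, *Gm28661* (681 bases), *Gm10925* (678), *Gm28437* (783), *Gm10222* (294) and *Gm28439* (876) were identical to the mitochondrial genes they match. *Gm28438* differed from *mt-Nd3* by the single substitution T3C, counted from base 1 of *mt-Nd3*, and *Gm29216* by 6 of 493 aligned positions from *mt-Co1*. Of the 150-base windows within a gene, the read length of the libraries, 99.4% of those of *mt-Co2*, 99.4% of *mt-Atp6*, 99.8% of *mt-Co3*, 97.0% of *mt-Nd3* and 98.0% of *mt-Nd4l* occurred again, letter for letter, in a nuclear transcript. The windows left over hold the bases past the annotated ends of the copies or, in *mt-Nd3*, also the substitution. For *mt-Nd4* the share was 59.2% and for *mt-Co1* 23.6%, both of which were high in counts. For *mt-Nd1*, *mt-Nd2*, *mt-Nd5*, *mt-Nd6*, *mt-Cytb* and both rRNA genes it was 0%. The deposited tables hold a row for reads not uniquely placed, and how many reads of these members it holds was not tested. How the authors' counting divided reads between these members and their copies cannot be seen in the tables, so the counts of both are uncertain.

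*mt-Atp8* is the exception, since no gene is annotated at the matching place on chromosome 1 and 0% of its windows recurred in a transcript. It lies between genes that do recur, and it is short. If fragments that touch 2 genes were set aside in counting, only 13 placements of a 150-base fragment touch *mt-Atp8* without touching another gene, and with 200 bases there is no such placement.

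The nuclear copies were counted at levels like those of their mitochondrial partners. *Gm28661* had 308, 1164 and 1993 counts in replicates 1, 2 and 3, or 108%, 94.3% and 87.4% of the counts of *mt-Co2*. *Gm10925* had 276, 1127 and 1829 counts, or 184%, 185% and 175% of *mt-Atp6*. *Gm28437* had 228, 792 and 1148 counts, or 69.5%, 72.1% and 63.1% of *mt-Co3*. These copies were also lowest in replicate 1. Since reads of gene and copy cannot be told apart, this is no second observation of the low replicate 1. *Gm28438* had 19, 114 and 197 counts and *Gm10222* 25, 63 and 51. Summed over these 5 pairs, the mitochondrial genes held 832, 3205 and 5557 counts and the copies 856, 3260 and 5218. *Gm28439*, with 110, 455 and 400 counts, was at no more than 0.50% of *mt-Nd4*, and *Gm29216*, with 112, 421 and 709, at no more than 0.105% of *mt-Co1*.

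**Figure D3:**
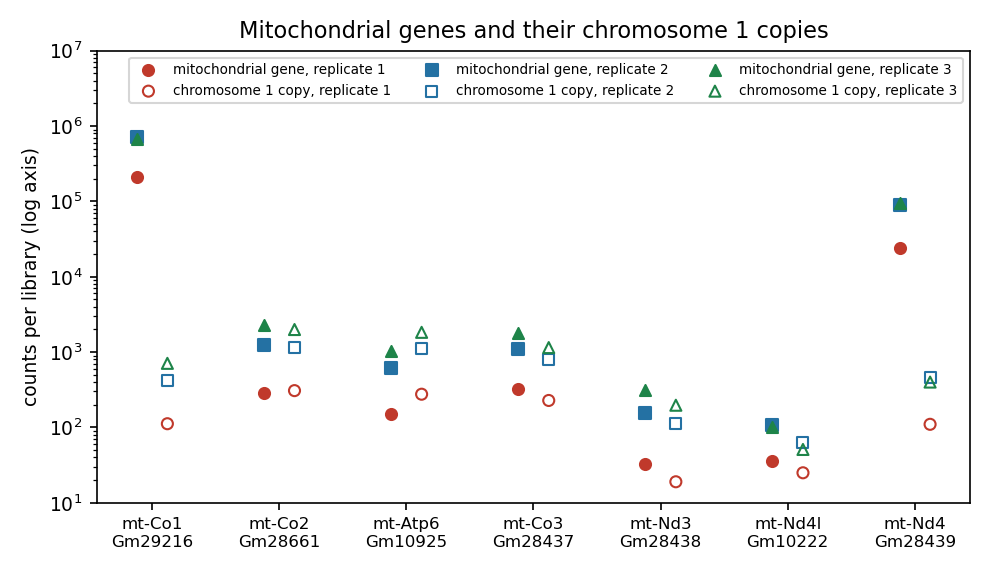
Counts per library on a log axis for 7 mitochondrial genes (filled) and their chromosome 1 copies (open), with a colour and shape for each OE library. In the 5 middle pairs gene and copy lie close together, with sums of 832 and 856 counts in replicate 1, while mt-Co1 and mt-Nd4 lie far above their partial copies.

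From replicate 1 to replicate 2 the mitochondrial genes differed by a similar factor. Over the 13 protein genes the ratio of CPM in replicate 2 to replicate 1 ran from 3.28 (*mt-Nd4l*) to 5.22 (*mt-Atp8*), with an SD of 0.22 on the log2 scale, and for the rRNA genes it was 3.59 (*mt-Rnr1*) and 3.50 (*mt-Rnr2*). Outside the run from *mt-Co2* to *mt-Nd4l* it ran from 3.50 (*mt-Cytb*) to 4.57 (*mt-Nd2*). *mt-Co1*, the most abundant, was at 5518 CPM in replicate 1 and 20076 in replicate 2, a ratio of 3.64.

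Between replicates 2 and 3 the genes moved apart instead. These libraries also differed in cell type markers. All 5 pigment epithelium markers were higher in replicate 3 (*Pmel* at 5.98 and 71.8 CPM), as were 5 of 5 muscle and 6 of 7 neuron markers. So were 2 of 5 in each of the mesenchyme, epithelial and erythroid lists, beside 8349 of 17115 genes. The part of these differences in the ratios was not tested. The ratio of replicate 3 to replicate 2 ran from 0.696 (*mt-Nd5*) to 1.90 (*mt-Nd3*) over the protein genes, with an SD of 0.45 on the log2 scale, and was 2.14 for *mt-Rnr1* and 1.84 for *mt-Rnr2*. Within the mitochondrial counts, *mt-Nd1* went from 14.1% to 18.3%, *mt-Nd5* from 8.50% to 6.12% and *mt-Co1* from 46.1% to 42.6%. *mt-Nd4* (1.00) and *mt-Nd2* (0.968) were at almost the same CPM in both libraries. Among the 7 protein genes outside the run the log2 ratio was lower the longer the gene (Pearson's r = -0.87 and Spearman's rho = -0.79 with length). These genes share libraries and, apart from *mt-Nd6* on the minus strand, a precursor. Among the 6 genes of the run the sign was the opposite (0.61 and 0.43), and over all 13 the values were -0.57 and -0.46. A dependence on length was also present among nuclear protein-coding genes, whose median log2 ratio of replicate 3 to replicate 2 was 0.83 for exonic lengths up to 1000 bases, 0.53 from 1000 to 2000, 0.14 from 2000 to 4000 and -0.29 above. The part of this trend in the mitochondrial ratios was not tested. The rRNA genes, at 955 and 1582 bases, lay above the protein genes of like length, *mt-Nd1* (957 bases, 1.25) and *mt-Co1* (1545 bases, 0.893). For the ratio of replicate 2 to replicate 1, r and rho with length were 0.095 and -0.071 in the 7 protein genes outside the run. The nuclear medians of that log2 ratio were 0.31, 0.19, 0.06 and -0.08 in the same length classes.

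**Figure D4:**
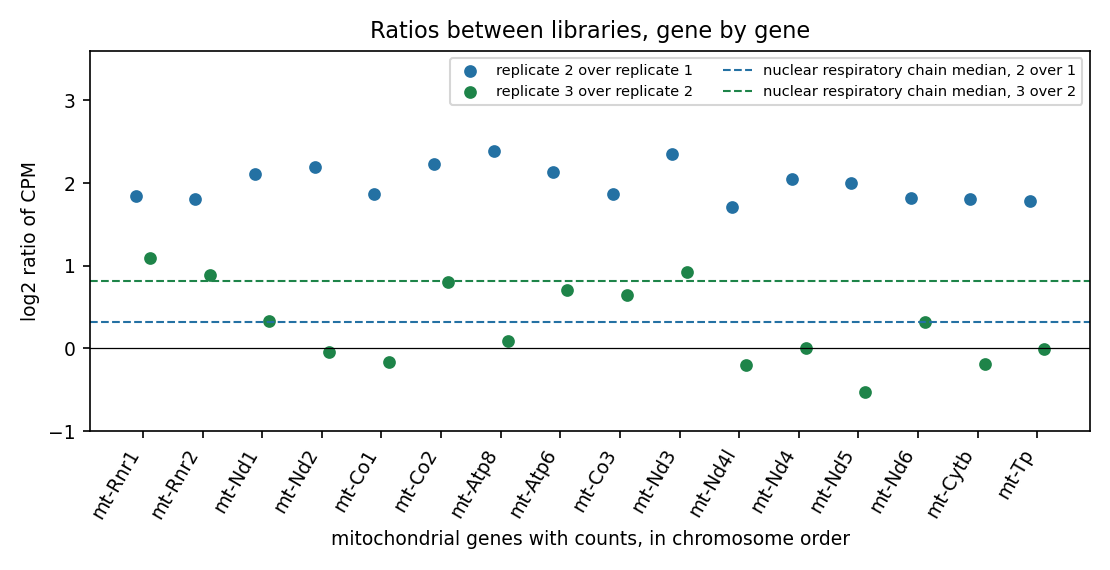
Log2 ratio of CPM between libraries for each of the 16 mitochondrial genes with counts, in chromosome order, with the medians of 77 nuclear respiratory chain genes as dashed lines (0.32 for replicate 2 over 1 and 0.81 for replicate 3 over 2). The ratios of replicate 2 to 1 lie in a band above that median, whereas those of replicate 3 to 2 spread on both sides of 0, from mt-Nd5 at the bottom to mt-Rnr1 at the top.

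The respiratory chain is built from both genomes, so the nuclear-encoded subunits were set beside the mitochondrial ones. All 77 listed nuclear subunits of complexes I to V passed the filter on low counts. In replicate 1 their median log2 difference from the other libraries was -0.75, with 72 of 77 lower (93.5%, beside 49.2% of all genes), against -2.17 for the mitochondrial genes. In replicate 3 it was 0.99, with 71 of 77 higher (92.2%, beside 48.7% of all genes). Of the nuclear subunits, 9 of 77 reached -1 or below in replicate 1, beside 6.69% of all genes, and 65 of 77 were past the 1.5-fold ratio (84.4%, against 61.9% of all genes). By complex the median in replicate 1 was -0.74 for complex I (36 genes), -0.14 for complex II (4 genes, the complex without a mitochondrial subunit), -0.66 for complex III (9 genes), -0.79 for complex IV (11 genes) and -0.77 for complex V (17 genes). Exonic length was up to 1000 bases for 17 of the nuclear subunits and up to 2000 for 46, with a median of 1756. Nuclear protein-coding genes in general had a median of -0.72 in replicate 1 up to 1000 bases, with 88.3% lower, and of -0.45 from 1000 to 2000, with 79.1% lower. In replicate 3 these classes had medians of 1.00 and 0.63, with 90.3% and 78.9% higher, and 89.6% and 71.7% of them were past the 1.5-fold ratio. The share of the nuclear subunits past 1.5-fold lay between the last 2 values. The part of length in the values of the subunits was not tested.

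At the ends of these lists, *Ndufb7* (40.4, 60.1 and 179 CPM in replicates 1, 2 and 3) and *Ndufb9* were lowest in replicate 1 relative to the others, at -1.36 and -1.29, and *Ndufs1* (0.22) and *Ndufb2* (0.58) highest, in complex I. In complex II *Sdhb* was at -0.58, *Sdhd* at -0.14, *Sdhc* at -0.13 and *Sdha* at 0.24. In complex III *Uqcrq* and *Uqcr11* were at -1.19 and -1.04, and *Uqcrfs1* and *Uqcrc2* at -0.09 and 0.09. In complex IV *Cox4i1* (217, 286 and 584 CPM) and *Cox8a* were at -0.91 and -0.86, and *Cox7b* and *Cox5a* at -0.54 and -0.44. In complex V *Atp5k* and *Atp5e* were at -1.26 and -1.16, and *Atp5b* (1426, 1481 and 1666 CPM), which encodes the catalytic beta subunit, and *Atp5a1*, which encodes the alpha subunit, were at -0.14 and 0.02. No nuclear subunit was as far below the other libraries as the least shifted mitochondrial gene, *mt-Nd4l*, at -1.56.

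Genes that read and copy mitochondrial DNA had a median log2 difference of -0.01 in replicate 1, where all genes were at 0.01, with 13 of 29 higher and 16 lower. Past the 1.5-fold ratio were 8 of 29 (27.6%, beside 61.9% of all genes). Their median exonic length was 4013 bases, with 2 of 29 up to 2000. Nuclear protein-coding genes from 2000 to 4000 bases had a median of -0.12 in replicate 1, and longer ones of 0.25. In these classes 54.7% and 56.6% were past 1.5-fold. The part of length in the values of this list was not tested. *Slirp*, which with *Lrpprc* protects mitochondrial messenger RNAs, was at -0.88 and *Fastk* at -0.67, while *Grsf1*, an RNA-granule protein, was at 0.47 and *Tfb2m*, a transcription initiation factor of mitochondria, at 0.67. Mitochondrial ribosomal proteins, which translate the 13 messenger RNAs, had a median of -0.55 over 77 genes of 78 listed, with 73 lower (94.8%, beside 49.2% of all genes). Exonic length was up to 1000 bases for 8 of them and up to 2000 for 30, with a median of 2533. Of nuclear protein-coding genes, 88.3% were lower up to 1000 bases, 79.1% from 1000 to 2000, 58.7% from 2000 to 4000 and 31.9% above, and the part of length in these values was not tested either. *Mrpl52* and *Mrps6* were lowest at -1.22 and -1.11, and *Mrpl50* and *Mrps2* highest at 0.13 and 0.24.

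**Figure D5:**
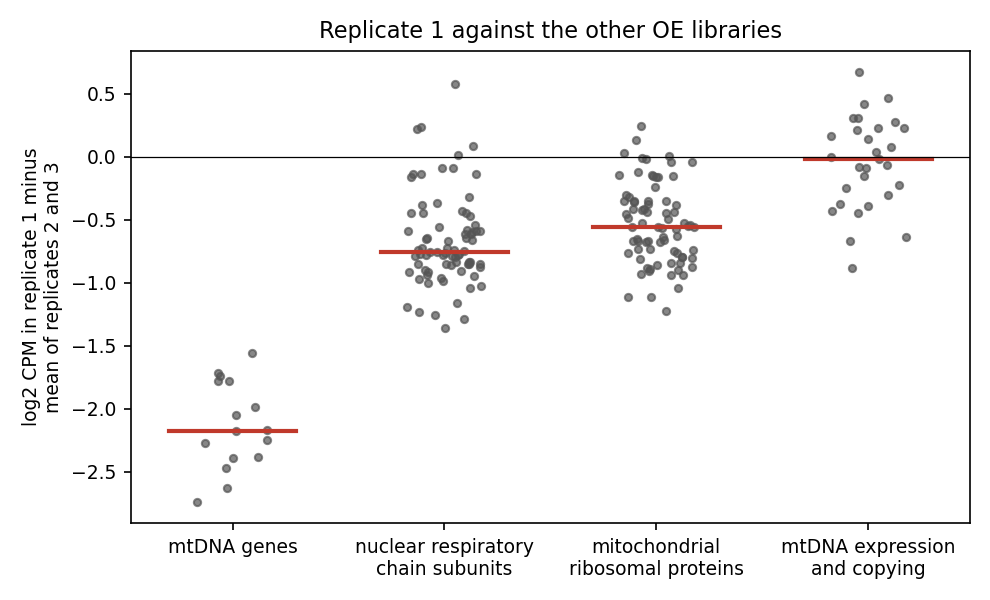
Log2 CPM in replicate 1 minus the mean of replicates 2 and 3, 1 point per gene, for 16 mitochondrial genes, 77 nuclear respiratory chain subunits, 77 mitochondrial ribosomal proteins and 29 genes of mitochondrial DNA expression and copying, with medians as red bars. The medians are -2.17, -0.75, -0.55 and -0.01, and the mitochondrial genes lie below all points of the other lists.

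*mt-Nd6* is the sole protein gene read from the minus strand, and in human cells its RNA is known for lacking a poly(A) tail. It was at 187, 659 and 826 CPM per kilobase, or 36.8%, 32.5% and 58.5% of its neighbour *mt-Nd5*, with which it shares 14 bases on opposite strands. Against the median of the 12 heavy-strand protein genes it was at 81.4%, 69.2% and 110% in replicates 1, 2 and 3, but that median lies within the gap between the low run and the other genes. Without the members that have a near-identical copy, it was at 17.3%, 15.4% and 21.1% of the median. The strand setting of the counting is not given in the sources used here, so that reads of *mt-Nd6* and of the heavy-strand precursor that crosses it cannot be told apart.

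Of the tRNA genes, counts were found for *mt-Tp*, the gene for the proline tRNA, with 700, 2227 and 2350 counts in replicates 1, 2 and 3. It is the last gene on the chromosome and borders the control region, where no gene is annotated, and its sequence is shown because it was the sole tRNA gene with counts (chrM:15356-15422, minus strand).

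mt-Tp: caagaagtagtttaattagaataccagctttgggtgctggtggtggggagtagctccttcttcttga

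A fragment of 150 bases can touch *mt-Tp* and no other gene in 67 placements. For each of the 21 tRNA genes at 0 counts the number of such placements was 0, and with fragments of 100 bases it was 6 for *mt-Tn*, 1 for *mt-Tc* and 0 for the other 19. The deposited tables hold a separate row for reads assigned to more than 1 gene, but the overlap mode of the counting is not given in the sources used here, and the placements assume that a fragment touching 2 genes was set aside. Under this assumption the 0 counts are no measure of the level of these tRNAs. Likewise, reads that touch *mt-Tp* from the control region count as *mt-Tp*, and its share of the mitochondrial counts, 0.159%, 0.144% and 0.148%, varied less between libraries than that of the other members.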

How the data were processed

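Total RNA of maxillary processes was selected with poly-T beads and sequenced as 150-base paired reads by the authors. The submitters' processing notes name FastQC, STAR 2.7.3a, HTSeq 0.12.4 and mm10. The strand setting, the overlap mode and the annotation release are not given in the sources used here. The authors deposited raw counts per gene, 1 table per library, without normalization. Rows that name no gene were left out of library sizes, which were 36544554, 35351031 and 40057435.

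Gene names, positions and transcript sequences came from GENCODE M21 (GRCm38). CPM used TMM factors from edgeR 4.0.16 (R 4.3.3). Log2 CPM used a prior count of 2 and a minimum mean of 10 counts per gene. DESeq2 1.42.0 gave alternative size factors. Copies of members were sought among all nuclear transcripts by shared words of 31 bases (at least 100 of them) and aligned with edlib 1.3.9.post1. Copies outside annotated transcripts were not sought, since no genome was used. A fragment placement was counted when it touched 1 gene only, which assumes that fragments on 2 genes were set aside. The scripts were tested on simulated data.

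The genes named were all members, the 2 lowest and 2 highest of each nuclear list in replicate 1, and copies with at least 10 counts in a library. Members, lists and alternatives were chosen with earlier results of these data known. Replicates were numbered in the order of the samples, and whether the RNA samples came from separate litters is not stated. The deviation of a library is its log2 CPM minus the mean of the other libraries.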

Additional observations from a re-analysis of the deposited data

How the results depend on the processing

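For the 12 results, 66 values were computed under other settings, of which 53 moved by less than 1 SD or, for a count, by less than 1.5 times. The ratio of the highest to the lowest share has no SD, and each change in it was left out of the 53, however small. The SD between libraries is wide because of replicate 1 or, for the rRNA share and *mt-Nd6*, replicate 3, so some larger shifts within it are given too. The mean mitochondrial share was 4.17% without replicate 1 in place of 3.18%. Without replicate 3 the rRNA share was 2.48% in place of 3.26%, and *mt-Nd6* was at 75.3% of the heavy-strand median in place of 86.9%. The ratio of the highest to the lowest mitochondrial share (3.63) was 3.57 over all counted reads, 3.81 with TMM scaling and 3.78 with DESeq2 size factors, and ran from 1.11 (without replicate 1) to 3.63 when each replicate was left out. With the mitochondrial total as the denominator, which takes out the overall share, the median log2 difference was -0.27 in replicate 1 (-2.17 as reported), turned to -0.096 in replicate 2 (0.89) and fell to 0.34 in replicate 3 (1.25), and 7 members were past 1.5-fold in place of 16. Over all 37 members the median was 0 in each replicate, since 21 members have no counts. The number of members past 1.5-fold ran from 6 (without replicate 1) to 16 when each replicate was left out. Without the members that have a near-identical nuclear copy, the tRNA share was 0.160% in place of 0.150%, and *mt-Nd6* was at 17.9% of the heavy-strand median in place of 86.9%, an alternative chosen after seeing the data. By windows that occur once among the transcripts, 0 of the 13 protein genes kept their rank per length. In that setting *mt-Co2*, *mt-Atp6*, *mt-Co3*, *mt-Nd3* and *mt-Nd4l* are divided by a handful of windows at the ends of the annotated copies, so no order is read from it. Of the 16 members with counts, 13 had at least 100 in every library, and *mt-Nd3* (33), *mt-Nd4l* (36) and *mt-Atp8* (49) had fewer in replicate 1. Other limits are the copies, the overlaps and 3 libraries of 1 genotype.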

Other observations

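Less similar copies of mitochondrial genes were also counted. On chromosome 2 (minus strand), *Gm13340* (97.6% identical to *mt-Co1* over its length) had 495, 1679 and 2110 counts in replicates 1, 2 and 3. *Gm13341* (95.9% identical to *mt-Co2*) had 86, 294 and 476 counts, and *Gm13339* (96.7% identical to part of *mt-Nd2*) had 15, 45 and 110. Each was lowest in replicate 1, as were the mitochondrial genes. How many of the reads on these copies came from the mitochondrial genes was not tested. *Gm4076* on chromosome 13 and *Gm11407* on chromosome 4, which resemble parts of *mt-Nd5* at 94.6% and 92.4% identity, had 12, 53 and 37 counts and 5, 8 and 12 counts. Relative to *mt-Co1*, *Gm13340* was at 0.232%, 0.235% and 0.312% in replicates 1, 2 and 3. *AC125122.2*, with 11, 6 and 0 counts, shared 2 words of 31 bases with a mitochondrial gene, and *Cep295* (1355, 1289 and 1243 counts) shared 4.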
